A study of Homo sapiens with 4 samples.

Results

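MIXL1, GSC, LHX1, EVX1, MESP1, MESP2 and MSGN1 are 7 transcription factor genes of the primitive streak and of the mesoderm that has just left it. They were taken by gene symbol from the FPKM files of 4 RNA-SEQ libraries of human cells at day 2 of hematopoietic differentiation, and are 7 of the 17894 genes in those files. All 7 averaged 1 FPKM or more over the 4 libraries and so passed the filter on low values, as did 12697 genes in all. FPKM gives the sequenced fragments of a gene relative to transcript length and to the size of the library, so that levels can be set side by side between genes.

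The libraries came from H1, a human embryonic stem cell line, grown on mAGM-S3, a mouse stromal line, in medium with serum, and sorted for TRA-1-85, an antigen of human cells. The control library was of wild-type cells without added factor. The R-spondin2 library was of wild-type cells given R-spondin2 at 20 ng/mL on the first day only. The other 2 libraries were LGR4-/- cells, numbered 1 and 2, collected at the same day without R-spondin2. LGR4 is a receptor for R-spondins. All 4 libraries shared the stroma, the day and the sort. The labels say neither how LGR4 was disrupted nor whether LGR4-/- 1 and 2 are separate clones or separate cultures of 1 clone, and the file headers give them different names, E1 and A3, without explaining these. A p-value over them therefore measures only the spread between these libraries.

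The primitive streak is the region of the gastrulating embryo where epiblast cells leave the epithelium and become mesoderm or endoderm. NODAL, BMP and WNT signals induce it, and its first transcription factors are switched on by SMAD proteins with FOXH1, by T-box factors and by TCF/LEF proteins. The homeobox factors among the 7 genes mark the streak itself or its organizer, and the basic helix-loop-helix (bHLH) factors mark mesoderm on its way to heart, vessel and somite. In cultures of human embryonic stem cells the same genes appear for a short time before blood precursors form.

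In the GENCODE 29 annotation of GRCh38, which is not the hg19 build of the submitters' processing notes, the members lie apart from each other except for 1 pair. MIXL1 is at chromosome 1, 226223618 to 226227054, GSC at chromosome 14, 94768216 to 94770230, and LHX1 at chromosome 17, 36936785 to 36944612. EVX1 is at chromosome 7, 27242700 to 27250493, and MSGN1, a gene of a single exon, at chromosome 2, 17816496 to 17817101. MESP1 (chromosome 15, 89748661 to 89751310) and MESP2 (89760591 to 89778754) point away from each other with 9280 bases between them. EVX1 shares 4530 bases with the antisense gene EVX1-AS, and LHX1 shares 3408 bases with an antisense gene, AC243773.1. The kit used for the libraries does not mark strand, so reads of these pairs cannot be told apart.

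The stretches before the starts of 4 members are shown because the genes moved together between the libraries, so that a reader can see which letters they share. RefSeq promoters of GRCh38.p14 were found for 5 of the 7 members (MIXL1, GSC, EVX1, MESP2 and MSGN1), and the 250 bases before each start were searched on both strands for 4 motifs, which were chosen with these genes in view. ACACCT is the core bound by T-box factors, AATNCACA a form of the FOXH1 site, CTTTGAT a TCF/LEF site and CAGAC the SMAD box. Capitals mark matches to ACACCT, AATNCACA or CTTTGAT or to their reverse complements, and each stretch is printed 5′ to 3′ on the gene's strand up to the first base that GENCODE counts as an exon of that gene. The RefSeq starts are not all those of the GENCODE positions above: the MESP2 stretch lies inside the longer MESP2 gene of GENCODE, before an internal start, so that the distance to MESP1 given above is not measured from this start.
MIXL1 promoter (chr1:226223414-226223617, plus strand): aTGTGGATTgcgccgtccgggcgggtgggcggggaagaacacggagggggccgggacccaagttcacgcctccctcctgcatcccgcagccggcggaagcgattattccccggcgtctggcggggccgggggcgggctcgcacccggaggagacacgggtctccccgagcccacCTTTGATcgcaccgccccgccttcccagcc
EVX1 promoter (chr7:27242552-27242699, plus strand): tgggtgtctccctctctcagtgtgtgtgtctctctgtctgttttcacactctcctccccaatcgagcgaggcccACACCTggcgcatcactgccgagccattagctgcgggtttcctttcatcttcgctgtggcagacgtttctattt
MESP2 promoter (chr15:89776082-89776331, plus strand): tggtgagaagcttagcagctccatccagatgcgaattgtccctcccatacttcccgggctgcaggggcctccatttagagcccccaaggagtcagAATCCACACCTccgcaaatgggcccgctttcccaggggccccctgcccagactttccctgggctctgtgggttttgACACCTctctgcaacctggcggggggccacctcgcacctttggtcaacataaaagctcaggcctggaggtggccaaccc
MSGN1 promoter (chr2:17816210-17816459, plus strand): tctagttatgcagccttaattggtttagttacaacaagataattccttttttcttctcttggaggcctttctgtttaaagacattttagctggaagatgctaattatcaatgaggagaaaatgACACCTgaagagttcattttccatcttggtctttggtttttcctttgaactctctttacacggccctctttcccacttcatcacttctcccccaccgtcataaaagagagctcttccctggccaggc

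The T-box core was found before 3 of the 5 members, EVX1, MESP2 and MSGN1, and in 9.57% of 35116 promoter windows of the same length. MESP2 held it at 150 and again at 79 bases before its start, EVX1 at 176 and MSGN1 at 127. The FOXH1 form was found before MIXL1 and MESP2, and in 2.89% of all windows. In MESP2 it overlapped the T-box core at 150 bases. The TCF/LEF site stood 76 bases before the start of MIXL1 and in 2.26% of all windows. The SMAD box was found before 4 of the 5 members, against 38.0% of all windows. GSC held no match to the first 3 motifs. A match describes letters only, and no binding was measured in these cells.

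**Figure D1:**
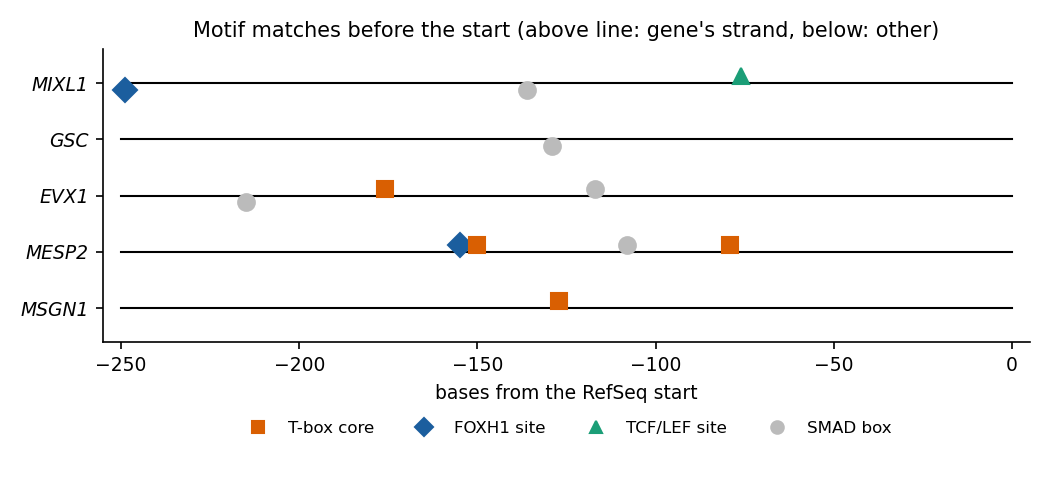
Motif matches in the 250 bases before the RefSeq start of 5 members, with distance from the start in bases on the x axis and 1 line per gene. Squares are the T-box core, diamonds the FOXH1 site, the triangle the TCF/LEF site and grey circles the SMAD box; marks above a line are on the gene's strand and marks below on the other. The T-box core lies before EVX1, MESP2 and MSGN1.

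No library stood apart in depth. The files used here hold FPKM rather than counts, and the depth implied by the low FPKM values was 8680000 to 8910000 reads, at which 76.3% to 77.7% of those values lay within 0.2 of a whole read. LGR4 itself was at 21.8 FPKM in the control library, 24.3 with R-spondin2, 7.40 in LGR4-/- 1 and 13.9 in LGR4-/- 2, so that its RNA was lower in both knockout libraries and still present. Between control and LGR4-/-, limma on log2(FPKM + 1) called 0 of 12697 genes at an adjusted p below 0.05, while 2332 genes had an unadjusted p below 0.05. That fit has 1 residual degree of freedom, the spread between the LGR4-/- libraries, and the lone control is assumed to vary like them.

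The 7 genes kept the same order of libraries. Each was lowest in LGR4-/- 1, higher in LGR4-/- 2, higher again in the control and highest with R-spondin2. Of all genes kept, 13.9% had this order, and 27.6% had both LGR4-/- libraries below both wild-type libraries. Not every step of the order was beyond counting error. The step from control to R-spondin2 was within it for EVX1, MESP2 and MSGN1. The step between the LGR4-/- libraries was within it for MESP2 and MSGN1. In RNA from a whole sorted population, fewer cells of a kind and less RNA in each cell cannot be told apart.

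**Figure D2:**
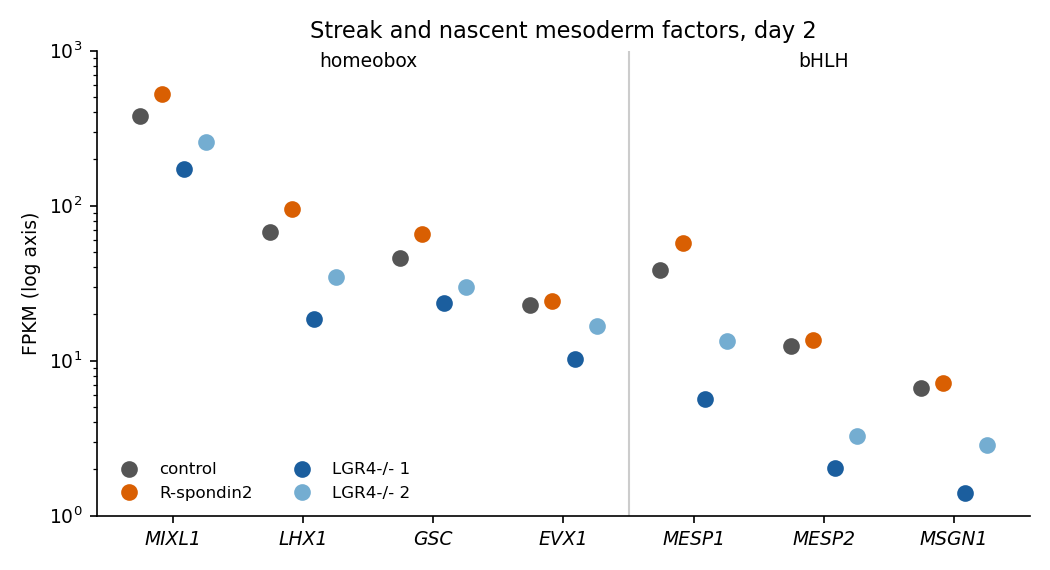
FPKM of the 7 members on a log axis, 1 point per library, with the homeobox factors on the left and the bHLH factors on the right. Every gene is lowest in LGR4-/- 1 and highest with R-spondin2, from MIXL1 at 174 to 528 FPKM down to MSGN1 at 1.41 to 7.23 FPKM.

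MIXL1, a paired-type homeobox factor that marks the streak and the mesoderm and endoderm leaving it, was the most abundant member. It was at 377 FPKM in the control, 528 with R-spondin2, 174 in LGR4-/- 1 and 257 in LGR4-/- 2. Its lowest wild-type value stood above both knockout values, which were 46.1% and 68.4% of the control, and the LGR4-/- libraries averaged 216 ± 59.3 FPKM (SD, n = 2). The difference from control in log2(FPKM + 1) was -0.83 with a standard error of 0.23 and a limma adjusted p of 0.154. MIXL1 alone made up 66.0% to 73.9% of the summed FPKM of the 7 genes in a library, and that sum was 571 in the control, 792 with R-spondin2, 235 in LGR4-/- 1 and 358 in LGR4-/- 2.

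GSC, the homeobox repressor of the organizer and anterior streak, was at 46.2 FPKM in the control, 66.1 with R-spondin2, 23.6 in LGR4-/- 1 and 29.8 in LGR4-/- 2. The knockout libraries held 51.1% and 64.5% of the control level (26.7 ± 4.38 FPKM, SD, n = 2). The log2(FPKM + 1) difference between them, 0.32, was smaller than for any other member. The log2(FPKM + 1) difference from control was -0.78 (standard error 0.15, limma adjusted p = 0.0995).

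LHX1, a LIM homeobox factor needed for head formation and expressed in the organizer and in early mesoderm, had the largest fold of the homeobox members between wild-type and knockout cells. Its FPKM were 67.4 in the control, 95.5 with R-spondin2, 18.6 in LGR4-/- 1 and 34.8 in LGR4-/- 2. The knockout levels were 27.6% and 51.7% of the control, with no overlap between the genotypes. The log2(FPKM + 1) difference was -1.37 (standard error 0.35, limma adjusted p = 0.139). LHX1 stood above GSC in control and R-spondin2 cells, while in the knockout libraries their mean levels were both 26.7 FPKM.

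EVX1, an even-skipped homeobox factor of the posterior streak, was at 22.8 FPKM in the control, 24.2 with R-spondin2, 10.2 in LGR4-/- 1 and 16.6 in LGR4-/- 2. LGR4-/- 2 kept 73.1% of the control level, the highest share among the members, against 44.9% in LGR4-/- 1. The log2(FPKM + 1) difference was -0.76 (standard error 0.27, limma adjusted p = 0.239).

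The bHLH members lay further below the control than the homeobox members, with median log2(FPKM + 1) differences of -1.92 and -0.80 over 3 and 4 genes. On this scale MSGN1 at -1.32 did not lie below LHX1 at -1.37. As a share of the control it did, at 21.2% and 43.1% in LGR4-/- 1 and 2 against 27.6% and 51.7% for LHX1. MESP1, the factor of the first mesoderm that gives rise to the heart and vessels, was at 38.5 FPKM in the control, 57.3 with R-spondin2, 5.64 in LGR4-/- 1 and 13.4 in LGR4-/- 2. The knockout libraries held 14.7% and 34.8% of the control level, the lowest share of any member in LGR4-/- 1. The log2(FPKM + 1) difference was -2.01 (standard error 0.44, limma adjusted p = 0.113), and 0.126% of the genes kept lay lower.

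MESP2, its neighbour on chromosome 15 and a factor of somite boundaries, was at 12.5 FPKM in the control and 13.7 with R-spondin2, and at 2.02 and 3.25 in LGR4-/- 1 and 2. The knockout libraries held 16.1% and 26.0% of the control level. This gave the smallest unadjusted p of the 7 genes (4.16e-04, limma), with a log2(FPKM + 1) difference of -1.92, a standard error of 0.23 and an adjusted p of 0.0755. MESP1 was 3.07 times MESP2 in the control, 4.20 times with R-spondin2, and 2.79 and 4.12 times in LGR4-/- 1 and 2, so the ratio varied as much within a genotype as between them.

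MSGN1, a factor of presomitic mesoderm, was the lowest member. It was at 6.64 FPKM in the control, 7.23 with R-spondin2, 1.41 in LGR4-/- 1 and 2.86 in LGR4-/- 2. Its coding stretch is short, and these levels stood for about 36, 38, 8 and 15 reads. The log2(FPKM + 1) difference was -1.32 (standard error 0.30, limma adjusted p = 0.119), on a scale that understates the change of genes this low.

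At least 2-fold lower levels in both LGR4-/- libraries were found for MESP1 and MESP2, 2 of the 7 members, against 1.08% of all genes kept. At least 1.5-fold lower levels in both were found for GSC, LHX1, MESP1, MESP2 and MSGN1, against 3.09%. No member passed the adjusted limma test, for which the share of lower genes over the whole table was 0%. All 7 had an unadjusted p below 0.05 and were lower, as were 8.19% of the genes kept. The median of the 7 differences was -1.32, beside 0.02 over all genes.

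When the R-spondin2 library was counted with the control as wild type, which leaves 2 libraries a genotype and 2 residual degrees of freedom, all 7 members passed limma with an adjusted p below 0.05, among 6.67% of genes that were lower. The adjusted p ran from 0.00731 for MESP2 to 0.0427 for EVX1, with 0.0130 for MESP1, 0.0142 for MSGN1, 0.0163 for GSC, 0.0168 for LHX1 and 0.0223 for MIXL1. In that fit the genotype differed by -2.29 in log2(FPKM + 1) for MESP1 and by -0.80 for EVX1. The fit takes a treated library as a second wild-type one, and each member was higher in it than in the control.

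The comparison of R-spondin2 with the control addresses whether 1 day of the ligand moved these genes, and it rests on 1 library a side with no replicate check. By the size of this difference 4 members stood above the other 3, of which the counting intervals below set only EVX1 apart from all 4. MESP1, GSC, LHX1 and MIXL1 were higher with R-spondin2 by 0.56, 0.51, 0.50 and 0.49 in log2(FPKM + 1), or 149%, 143%, 142% and 140% of the control. MESP2, MSGN1 and EVX1 were at 109%, 109% and 106% of the control, with log2 differences of 0.12, 0.11 and 0.08.

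Read counts implied by FPKM, transcript length and depth give 95% intervals for the log2 ratio of these libraries, which cover counting error only. For MIXL1 the ratio was 0.49 (0.42 to 0.56), for LHX1 0.50 (0.42 to 0.59), for GSC 0.52 (0.35 to 0.68) and for MESP1 0.57 (0.44 to 0.70). All of these lie above 0. For EVX1, at 599 and 620 reads, it was 0.09 (-0.08 to 0.25), an interval that ends below each of those 4. For MESP2 the interval was -0.18 to 0.43 and for MSGN1 -0.58 to 0.81, so no difference could be detected at this depth, and a rise as large as that of the 4 genes is within the interval of MSGN1.

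Against all genes the rises were small in size and high in rank. No member was higher by at least 2-fold or by at least 1.5-fold, as 0.0473% and 0.536% of genes were. All 7 were higher by some amount, as were 47.8% of genes. Only 0.630% of the genes kept had a larger difference than MESP1, 0.890% than GSC, 0.961% than LHX1 and 1.03% than MIXL1, while 22.2% had a larger one than MESP2, 23.5% than MSGN1 and 27.9% than EVX1. The SD of the difference over all genes was 0.213.

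**Figure D3:**
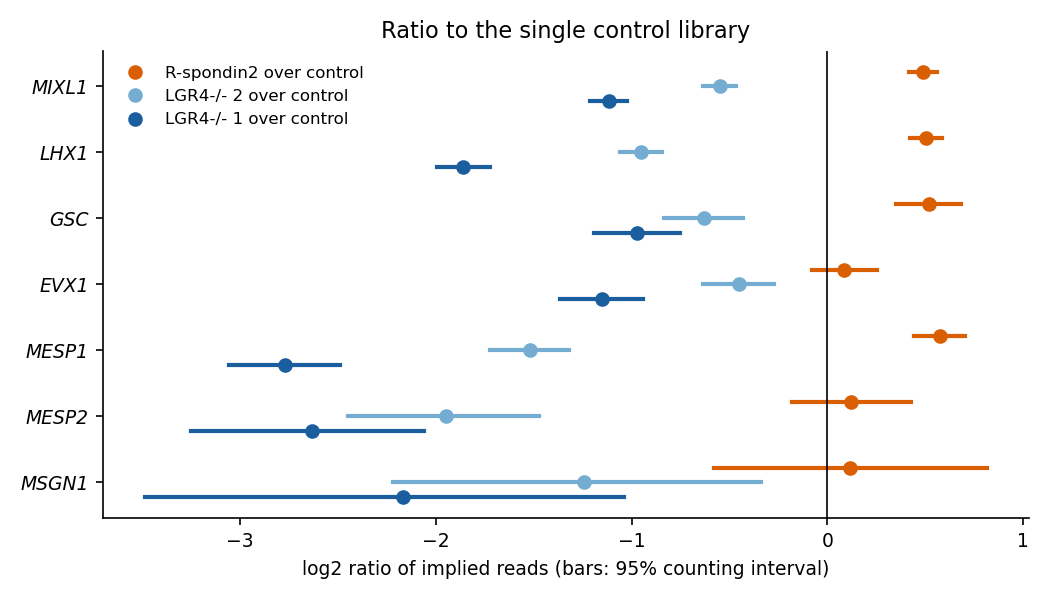
Log2 ratio of implied reads of each library to the single control library for the 7 members, with 95% counting intervals as bars. The R-spondin2 bars of EVX1, MESP2 and MSGN1 cross 0, those of the other 4 members do not, and all LGR4-/- bars lie below 0, from -0.45 for EVX1 in LGR4-/- 2 to -2.77 for MESP1 in LGR4-/- 1.

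The LGR4-/- libraries were not alike. All 7 members were higher in LGR4-/- 2 than in LGR4-/- 1, as 49.2% of genes were, with a median log2(FPKM + 1) difference of 0.65 beside -0.003 over all genes, whose SD was 0.222. The difference was 1.12 for MESP1, 0.87 for LHX1, 0.68 for MSGN1, 0.65 for EVX1, 0.57 for MIXL1, 0.49 for MESP2 and 0.32 for GSC. The counting interval of this ratio lay above 0 for 5 members and held 0 for MESP2 (-0.02 to 1.41) and MSGN1 (-0.40 to 2.37). LGR4 was also higher in LGR4-/- 2, by a log2 ratio of 0.91 (0.72 to 1.11). Its part in the result was not tested.

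The order of levels between genes was steady at both ends. In control and R-spondin2 cells it ran MIXL1, LHX1, GSC, MESP1, EVX1, MESP2 and MSGN1. In both knockout libraries EVX1 stood above MESP1, and in LGR4-/- 1 GSC also stood above LHX1. Over the LGR4-/- libraries, EVX1 was at 13.4 ± 4.53 and MESP1 at 9.52 ± 5.48 FPKM, and MESP2 at 2.64 ± 0.87 and MSGN1 at 2.14 ± 1.03 (SD, n = 2). These means differ by less than the SDs, but each pair was measured in the same libraries, and within each LGR4-/- library EVX1 stood above MESP1 and MESP2 above MSGN1. MESP1 per MIXL1 was 0.102 in the control and 0.108 with R-spondin2, and 0.0325 and 0.0520 in LGR4-/- 1 and 2.

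The genes whose differences from control came closest to those of each member were looked for among 9023 genes averaging 5 FPKM or more, by Euclidean distance over the 3 other libraries. The nearest to MIXL1 was EOMES, the T-box factor of the streak, at 117, 157, 54.6 and 77.1 FPKM in control, R-spondin2, LGR4-/- 1 and LGR4-/- 2. MIXL1 was 3.18 to 3.37 times EOMES in all 4 libraries, a steadiness that the choice by likeness favours. NTN1 and AMIGO2 followed. GSC had ERVH48-1, the retinoic acid hydroxylase gene CYP26A1 and the matrix protease gene MMP14. LHX1 had ENC1 and LIX1.

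MESP1 was closest to BMP4 (67.4, 98.3, 9.65 and 22.5 FPKM). Its level was 0.571 to 0.596 of that of BMP4 in the 4 libraries, again a steadiness that the choice by likeness favours. NOG, which encodes a BMP antagonist, and MSX1, a homeobox target of BMP, came next. For MESP2 the nearest were FMOD, PRTG and APLNR, the apelin receptor gene. For MSGN1 they were WLS, whose product carries WNT proteins to the cell surface, TDRD7, and NKD1, a feedback target of WNT. EVX1 was closest to APCDD1, AGAP3 and ADRA2C. Likeness over 4 libraries says only that the values ran side by side.

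The signals that induce the streak did not move as 1 group. Of 12 listed genes 11 were kept, 6 of them lower and 4 higher in both LGR4-/- libraries, with a median difference of -0.46. BMP4 and BMP2, ligands of the BMP pathway, differed from control by -2.11 and -1.69 in log2(FPKM + 1), and the ligand genes FGF4 and GDF3 by 0.49 and 1.17. NODAL, the ligand upstream of MIXL1 and GSC, was at 84.2 FPKM in the control, 91.7 with R-spondin2, 90.8 in LGR4-/- 1 and 124 in LGR4-/- 2. Its knockout values were thus not below the control. MIXL1 per NODAL was 4.47 and 5.76 in control and R-spondin2 cells and 1.91 and 2.07 in the knockout libraries. With both wild-type libraries as the reference, 4 of the 11 genes passed limma as lower and 1, GDF3, as higher.

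Readouts of those signals were divided in the same way. Of 16 kept, 8 were lower and 5 higher in both LGR4-/- libraries, and 5 passed as lower and 1 as higher against both wild-type libraries. CER1, which encodes a secreted antagonist of NODAL, BMP and WNT, was at 2396 FPKM in the control, 3467 with R-spondin2, 599 in LGR4-/- 1 and 1034 in LGR4-/- 2. NKD1 differed from control by -1.39. LEFTY1, a feedback target of NODAL, was higher by 0.79 and DUSP6, a feedback target of FGF, by 0.50.

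Among 12 other streak factors, all kept, 9 were lower and 2 higher in both LGR4-/- libraries, with a median of -0.82, and 7 passed as lower and 2 as higher against both wild-type libraries. T (BRACHYURY) was at 70.3 FPKM in the control, 77.8 with R-spondin2, 37.6 in LGR4-/- 1 and 66.5 in LGR4-/- 2. In LGR4-/- 2 its ratio to control was -0.08 (-0.19 to 0.03) in log2 implied reads, an interval that held 0, while that of every one of the 7 members lay below 0 in the same library. SNAI2, a repressor of epithelial genes, differed from control by -1.70 and CDX2, a posterior homeobox factor, by -1.23, whereas CDH1, which encodes E-cadherin, was higher by 0.93 and FOXA2, of endoderm and node, by 0.34. TBX6, a T-box factor that acts with MSGN1 in paraxial mesoderm, was at 26.7, 31.2, 10.2 and 14.8 FPKM in control, R-spondin2, LGR4-/- 1 and LGR4-/- 2, with no overlap between genotypes.

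Of 12 organizer genes, the setting in which GSC and LHX1 act, 8 were lower and 2 higher in both LGR4-/- libraries, and the median was only -0.20. NOG and CER1 differed from control by -2.13 and -1.60 and CHRD, the gene of another BMP antagonist, by 0.41, at 1.12 FPKM in the control. Against both wild-type libraries 4 passed as lower and 1, FOXA2, as higher.

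The genes listed for lateral, cardiac, paraxial and presomitic mesoderm were mostly lower as well. Libraries of a single day give no order between them and the members. In the lateral and cardiac list 11 of 16 were kept, and all 11 were lower in both LGR4-/- libraries, with a median of -1.50. At least 2-fold lower in both were 8 of them, against 1.08% of all genes kept. For genes lower or higher in both by any amount, no share over all genes was counted beside this or the other lists. HAND1, a bHLH factor of lateral and heart mesoderm, was at 70.0 FPKM in the control, 99.9 with R-spondin2, 8.59 in LGR4-/- 1 and 19.8 in LGR4-/- 2. APLNR differed by -1.95, HAND2 by -1.15 and KDR, the VEGF receptor gene, by -0.21. Against both wild-type libraries 10 of the 11 passed as lower, KDR being the exception (adjusted p = 0.244, limma). In the paraxial and presomitic list 11 of 16 were kept, 9 were lower and 2 higher in both, and the same number, 9, passed as lower. DLL3, a Notch ligand of presomitic mesoderm, and FOXC1 each differed by -1.60, while LFNG and TCF15 were higher by 0.31 and 0.61.

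**Figure D4:**
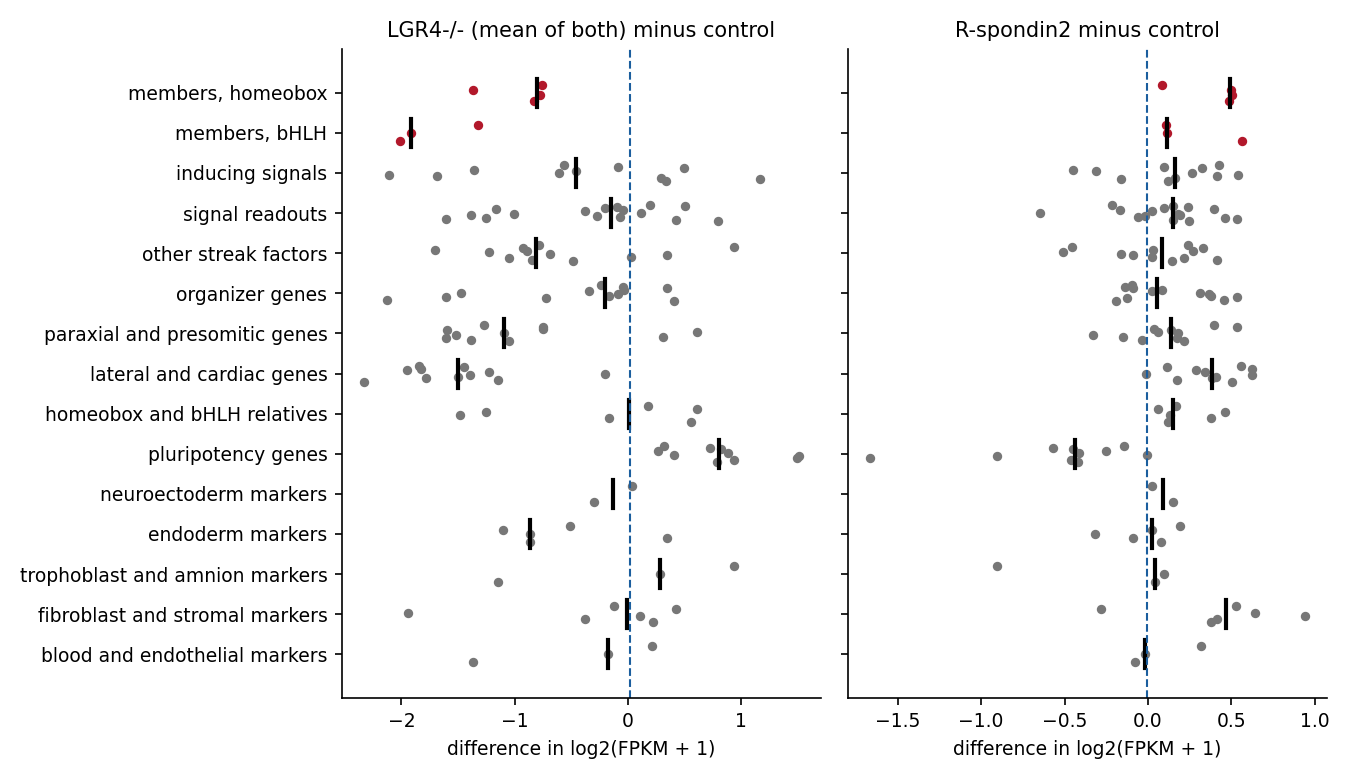
Differences from control in log2(FPKM + 1) for the genes of 15 lists, as the mean of both LGR4-/- libraries (left) and with R-spondin2 (right), 1 point per gene, with list medians as black bars and the median of all genes kept as a dashed line. The 7 members are in red; the bHLH members have a median of -1.92 and the homeobox members of -0.80 on the left, and the median of the pluripotency genes lies on the other side of the dashed line from both in each panel.

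With R-spondin2, 10 of the 11 lateral and cardiac genes kept were higher than in the control, with a median of 0.39. HAND1 was higher by 0.51, APLNR by 0.29 and HAND2 by 0.18, and KDR differed by -0.01. Of the paraxial and presomitic genes 8 of 11 were higher (median 0.14), of the other streak factors 8 of 12 (0.09), of the inducing signals 8 of 11 (0.17), of the readouts 11 of 16 (0.15) and of the organizer genes 7 of 12 (0.05), beside a median of -0.008 over all genes. The 4 homeobox members had a median of 0.49 and the 3 bHLH members of 0.12, but neither family moved as 1. The largest difference of the 7 was that of MESP1, a bHLH gene, at 0.56. The smallest was that of EVX1, a homeobox gene, at 0.08. No gene of these lists was at least 2-fold higher or lower with R-spondin2.

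Genes of undifferentiated cells moved the opposite way to the members. All 10 listed pluripotency genes were higher in both LGR4-/- libraries, with a median difference of 0.80, and all 10 were lower with R-spondin2, with a median of -0.43. Of these ZFP42 differed by only -0.007 with R-spondin2 and by 0.004 once each library was rescaled by its median ratio, which turned no other direction counted in the lists. Their summed level was 1471 FPKM in the control, 1139 with R-spondin2, 2478 in LGR4-/- 1 and 2248 in LGR4-/- 2. SOX2 was at 19.9, 5.58, 66.0 and 50.7 FPKM in the same order. All 10 passed limma as higher in the fit with both wild-type libraries, as 7.99% of all genes did. That fit counts the R-spondin2 library, in which these genes were lower, as wild type, which widens the difference. For SOX2 the difference was 2.33 in that fit and 1.49 against the control alone. No gene of the list was at 0 in any library, and the part of undifferentiated cells in the members' levels was not tested.

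Markers of other cells the sort could hold did not move as 1 group, and some moved as far as the members. PAX6 and SOX1, defining neuroectoderm, were at 0.47 FPKM or less in each library, and CDH5 and CD34, of endothelium, at 0.22 or less. The summed levels of the whole lists were 81.9 to 121 FPKM for neuroectoderm, nearly all of it NES, a filament gene of many dividing cells, 10.6 to 15.9 FPKM for blood and endothelium and 7.03 to 10.2 FPKM for trophoblast and amnion. Of the 3 blood and endothelial genes kept, RUNX1, a factor of blood formation, was at 3.96, 3.71, 0.61 and 1.29 FPKM in control, R-spondin2, LGR4-/- 1 and LGR4-/- 2 and passed as lower against both wild-type libraries (adjusted p = 0.0118, limma). HBE1, an embryonic globin gene, was at 6.76 to 8.85 FPKM without passing. Of the 3 trophoblast and amnion genes kept, GATA3 differed from control by -1.14 in the knockout libraries and KRT7 by 0.94, and both passed against both wild-type libraries, in opposite directions. KRT7 differed by -0.90 with R-spondin2. Of 9 endoderm markers 5 were kept, 4 of them lower and 1, FOXA2, higher in both LGR4-/- libraries. Summed levels of the whole list were 73.2, 75.7, 43.6 and 48.5 FPKM. SOX17 and APOA1 differed from control by -0.87 and -1.10 in the knockout libraries, and FOXA2 by 0.34. Of 8 fibroblast and stromal markers 6 were kept, with 3 lower and 2 higher in both LGR4-/- libraries and summed levels of 240, 303, 221 and 251 FPKM. In that list DCN and POSTN stayed at 0.39 FPKM or less, while others were well expressed. COL1A2 was at 115, 153, 79.4 and 97.4 FPKM and COL1A1 at 64.0, 83.6, 74.8 and 74.6 FPKM in control, R-spondin2, LGR4-/- 1 and LGR4-/- 2. LUM differed by -1.94 in the knockout libraries. With R-spondin2, 5 of these 6 genes were higher, with a median of 0.47 beside 0.49 for the 7 members, and COL3A1, at 0.94, was higher by more than any member. The part of stromal cells in the R-spondin2 values was not tested.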

How the data were processed

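RNA-SEQ was measured in 4 libraries of sorted H1-derived cells at day 2. The authors deposited FPKM, length- and depth-scaled and given to 2 decimals; no count table was used here. The submitters' processing notes name hg19, BWA, Bowtie and RSEM; their roles and versions are not given in the sources used here. Libraries were grouped by their labels.

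Values were compared as log2(FPKM + 1) over the 12697 genes whose FPKM averaged 1 or more. The LGR4-/- libraries were compared with control by limma 3.58.1 in R 4.3.3 (moderated test with trend, Benjamini-Hochberg adjustment over all genes kept), which was tested on simulated data. R-spondin2 against control was given without a test. Python 3.11.15 with scipy 1.17.1 was used for the rest.

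Depth was estimated from FPKM under 0.6 in transcripts of less than 1500 bases, as the total that made most of them whole reads; lengths were those of GENCODE 29, known for 8068 genes of 1 RefSeq transcript. With shuffled lengths 35.5% to 38.8% of values were near whole. Intervals are 95% Clopper-Pearson intervals of implied reads, with the shorter of 2 transcripts for MIXL1 and the only known length of 3 for EVX1.

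The members and lists were chosen with earlier results of these data known. Named were the members, LGR4, the 2 highest and 2 lowest genes of each list by mean LGR4-/- difference, the 3 genes most like each member, and overlapping or related genes; a gene that this rule names is not reported here. NODAL, T, TBX6, SOX2 in every library, and the markers PAX6, SOX1, CDH5, CD34, DCN, POSTN and COL3A1 were named in addition after their values were seen. Alternatives were a pseudocount of 0.1, no filter or 5 FPKM, median-ratio rescaling, 1.5-fold, limma without trend, implied reads, each LGR4-/- library left out, and both wild-type libraries as reference.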

Additional observations from a re-analysis of the deposited data

How the results depend on the processing

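Each of the 55 recomputed LGR4-/- differences of the members stayed below 0. Most settings could not turn this sign, since both LGR4-/- libraries lay below both wild-type libraries for every member. The filters and limma without trend left the differences themselves unchanged. The count of genes called by limma between LGR4-/- and control moved from 0 to 497 with a filter of 5 FPKM, when GSC (adjusted p = 0.0313), MESP1 (0.034) and MESP2 (0.0133) passed, to 88 after median-ratio rescaling, when MESP2 passed (0.0481), and to 1862 with both wild-type libraries as the reference; it stayed at 0 in the other fits. The genes at least 2-fold higher with R-spondin2 numbered 6, and 32 with a pseudocount of 0.1, 12 without a filter, 0 with at least 5 FPKM and 68 at 1.5-fold. Those lower numbered 22, and 107, 14 and 186 with a pseudocount of 0.1, at least 5 FPKM and 1.5-fold. For LGR4-/- 137 were lower in both, against 230 with a pseudocount of 0.1, 392 at 1.5-fold and 149 to 287 with 1 library left out, and 30 were higher, against 115 with a pseudocount of 0.1, 18 with at least 5 FPKM, 332 at 1.5-fold and 42 to 160. The members past 2-fold numbered 2, against 5 at 1.5-fold and 2 to 6 with 1 LGR4-/- library left out. Without an LGR4-/- library no residual degree of freedom remains, so those are values with no test. No paired analysis was possible because only the LGR4-/- libraries carry numbers. Depth limits MSGN1 most, at 8 to 38 implied reads.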

Other observations

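Several relatives of the homeobox members were nearly silent, but not all. GSC2, the relative of GSC, was listed at 0 in 3 libraries and at 0.19 FPKM in the control, and EVX2, the relative of EVX1, at 0 in all 4. Among LIM homeobox genes related to LHX1, LHX9 was listed at 0 throughout, LHX8 was at 0.06 FPKM or less and LHX3 at 0.05 or less. LHX5 was at 0.16 FPKM in the control, listed at 0 with R-spondin2, and at 1.08 and 0.38 in LGR4-/- 1 and 2. Of 16 listed relatives 6 were kept. Among them OTX2 was at 41.96 FPKM in the control, 54.9 with R-spondin2, 38.65 in LGR4-/- 1 and 35.85 in LGR4-/- 2. PITX1 differed from control by -1.48 in log2(FPKM + 1) and passed limma as lower against both wild-type libraries (adjusted p = 0.0111), and LHX4 and TCF15 were at 0.56 and 0.61 without passing (adjusted p = 0.0866 and 0.0653).

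Some genes that were lower in LGR4-/- cells like the members were not higher with R-spondin2. CDX2 was at 8.80 FPKM in the control and 5.89 with R-spondin2, and at 2.87 and 3.53 in LGR4-/- 1 and 2. WNT8A, a ligand of the posterior streak, was at 11.2, 7.89, 3.45 and 4.03 FPKM in the same order, and HES7, an oscillating repressor of presomitic mesoderm, at 2.64, 1.90, 0.27 and 0.27. Each had its highest value in the control, while the 7 members had theirs with R-spondin2. For EVX1, MESP2 and MSGN1 that rise was within counting error. No counting interval was taken for CDX2, WNT8A or HES7. WNT8A and HES7 were chosen after their values were seen, and with 1 library in each of these conditions the difference was not tested.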
